A study of Mus musculus with 13 samples.

Results

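The transforming growth factor beta (TGF-beta) pathway was examined in mouse microglia, the resident macrophages of the brain, through 10 genes: the ligand Tgfb1, the ligand anchor Lrrc33, the receptors Tgfbr1 and Tgfbr2, the signal carriers Smad2, Smad3 and Smad4, and the inhibitors Smad7, Ski and Skil. The genes were chosen by symbol as members of the pathway, with earlier results of these data known, and all 10 were found among the 19737 genes of the expression table. Lrrc33 is listed there under its current symbol, Nrros. Every one of the 10 passed the filter on low values, which required a mean of at least 1 FPKM (fragments per kilobase of a gene, relative to the library's total) over the 13 libraries.

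Libraries of total RNA depleted of ribosomal RNA came from 4 groups. One group was wild type (n = 3), and the next was 5xFAD (n = 2), a mouse model that overproduces amyloid through transgenes with familial Alzheimer's disease mutations. Both had been given EGFP in a PHP.eB vector, a capsid of adeno-associated virus. A further 5xFAD group (n = 4) had been given circPOLR2A, a circular RNA, in PHP.eB. The remaining mice were 5xFAD lacking PKR (labelled PKR KO, n = 4), a kinase that double-stranded RNA activates. The treatment labels of the circRNA libraries end in (9,10), (9,11), (9,12) and (9,13), whereas the design text gives (9,10) for all of them, so it is unclear whether they share a construct. For the PKR knockout mice no virus is named, and library names are given for that group alone. Ages, and whether each library is a separate animal, are not given in the sources used here, so p-values measure only the spread between these libraries. Differences between any other group and PKR knockout therefore cannot be told apart from the absence of a named virus. The study concerns what delivery of a double-stranded circular RNA to neurons does to microglia in this model.

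TGF-beta is secreted in a latent complex that keeps the ligand from its receptors. On microglia the Lrrc33 protein tethers this complex, and integrins release the ligand, which binds the type II receptor Tgfbr2. Tgfbr2 then activates the type I receptor Tgfbr1, which phosphorylates Smad2 and Smad3, and these enter the nucleus with Smad4. Smad7 blocks the receptor, Ski and Skil repress transcription at Smad-bound genes, and microglia are known to need the pathway to keep their homeostatic gene programme.

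The results below turn on the receptor pair, since Tgfbr2 rose in all 3 comparisons with wild type and Tgfbr1 fell in the one with PKR knockout, and the 250 bases before the start site of each receptor gene are shown for that reason. Sequences are from RefSeq on build GRCm38.p6. The Tgfbr1 window is chr4:47352972-47353221 on the plus strand, at the start site that coincides with the start of the annotated gene, and the Tgfbr2 window is chr9:116175364-116175613 on the minus strand. Capitals mark matches to CAGAC, a Smad-binding motif, and to GAGGAA, the core bound by the myeloid factor PU.1. GTCTAGAC, the palindromic Smad element, was also searched, in each case on both strands.
Tgfbr1: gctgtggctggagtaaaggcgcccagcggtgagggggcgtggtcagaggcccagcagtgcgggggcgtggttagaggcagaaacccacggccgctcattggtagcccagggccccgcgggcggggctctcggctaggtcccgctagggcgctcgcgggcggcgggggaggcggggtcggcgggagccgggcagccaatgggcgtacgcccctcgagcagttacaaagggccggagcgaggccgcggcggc
Tgfbr2: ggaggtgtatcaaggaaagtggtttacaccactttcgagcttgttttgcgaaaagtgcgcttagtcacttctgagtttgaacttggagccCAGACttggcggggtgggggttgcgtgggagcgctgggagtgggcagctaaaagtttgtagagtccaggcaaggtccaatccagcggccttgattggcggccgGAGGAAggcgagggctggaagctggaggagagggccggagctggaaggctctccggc
The windows differ in base composition, with 74.8% G and C before Tgfbr1 and 58.4% before Tgfbr2. The Tgfbr2 window holds CAGAC 160 bases and GAGGAA 57 bases before the start site, and the Tgfbr1 window shown holds none of the 3 motifs. RefSeq lists a further Tgfbr1 start, whose window (chr4:47385966-47386215) holds CAGAC 203 bases and GAGGAA 95 bases before it. Of 32851 promoter windows of this length, 42.2% hold CAGAC, 23.3% hold GAGGAA and 0.167% hold GTCTAGAC, so the matches describe these letters and say nothing of binding.

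Depth, recovered from the steps of the low values, was 45.2 to 70.0 M (mega) fragments per library, and the 4 PKR knockout libraries (57.7 to 70.0 M) were all deeper than any other library (45.2 to 54.9 M). Depth and knockout therefore cannot be told apart. The 10 genes had 1851 to 52296 fragments each, a counting error of 0.437% to 2.32%. Microglia markers summed to 2525 to 4182 FPKM, and lymphocyte markers to at most 0.512 FPKM. Wild type replicate 3 stood apart: its microglia markers summed to 2525 FPKM against 3999 and 4042 in the other wild type libraries, and its oligodendrocyte markers to 1580 against 392 and 352. It was the lowest wild type library for 9 of the 10 genes, all but Smad4, and the comparisons of the 10 genes with wild type are therefore also given without it. Among circRNA libraries, replicates 1 and 4 had the higher oligodendrocyte sums (745 and 786 FPKM, against 306 and 307 in replicates 2 and 3). Replicate 4 was the lowest of its group for 8 of the 10 genes and replicate 3 the highest for 7, and the part that other cells played in this was not tested. In PKR knockout libraries oligodendrocyte markers summed to 225 to 375 FPKM, below both 5xFAD EGFP libraries (636 and 680). All 6 of these markers were lower in the knockout, with medians of -1.40 against EGFP and -0.95 against wild type; none passed, and their part in the knockout differences was not tested. Endothelial markers summed to 49.8 to 115 FPKM in wild type and to 22.8 to 64.3 in all other groups, and border macrophage markers to 36.0 to 57.4 and 13.3 to 24.3. The PKR gene, Eif2ak2, measured 3.31 to 4.61 FPKM in knockout libraries, 6.49 to 6.59 in 5xFAD with EGFP, 7.37 to 8.11 with circRNA and 4.14 to 5.23 in wild type, so that reads from it remained and knockout and wild type libraries overlapped. In bulk RNA, fewer cells of a type and less RNA per cell cannot be told apart.

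Per kilobase of gene and as a mean over the 13 libraries, the receptors were the most abundant of the 10 transcripts. Mean levels over the 13 libraries were 108 FPKM for Tgfbr1, which ranked 128 of 19737 genes, and 72.7 FPKM for Tgfbr2, which ranked 201. Ski followed at 60.1 FPKM, Tgfb1 at 39.9 and Smad7 at 30.1. In each wild type library, however, Ski lay above Tgfbr2, with wild type means of 57.1 and 44.2 FPKM. Skil (21.7 FPKM) and Nrros (21.5 FPKM) did not differ in level beyond their spread over libraries, which was 13.9 to 27.7 and 16.1 to 25.7 FPKM. The signal carriers were the least abundant, with Smad3 at 16.5, Smad4 at 13.2 and Smad2 at 4.76 FPKM. The 10 transcripts together summed to 293 FPKM in wild type replicate 3 and to 358 to 451 FPKM in the other libraries.

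**Figure D1:**
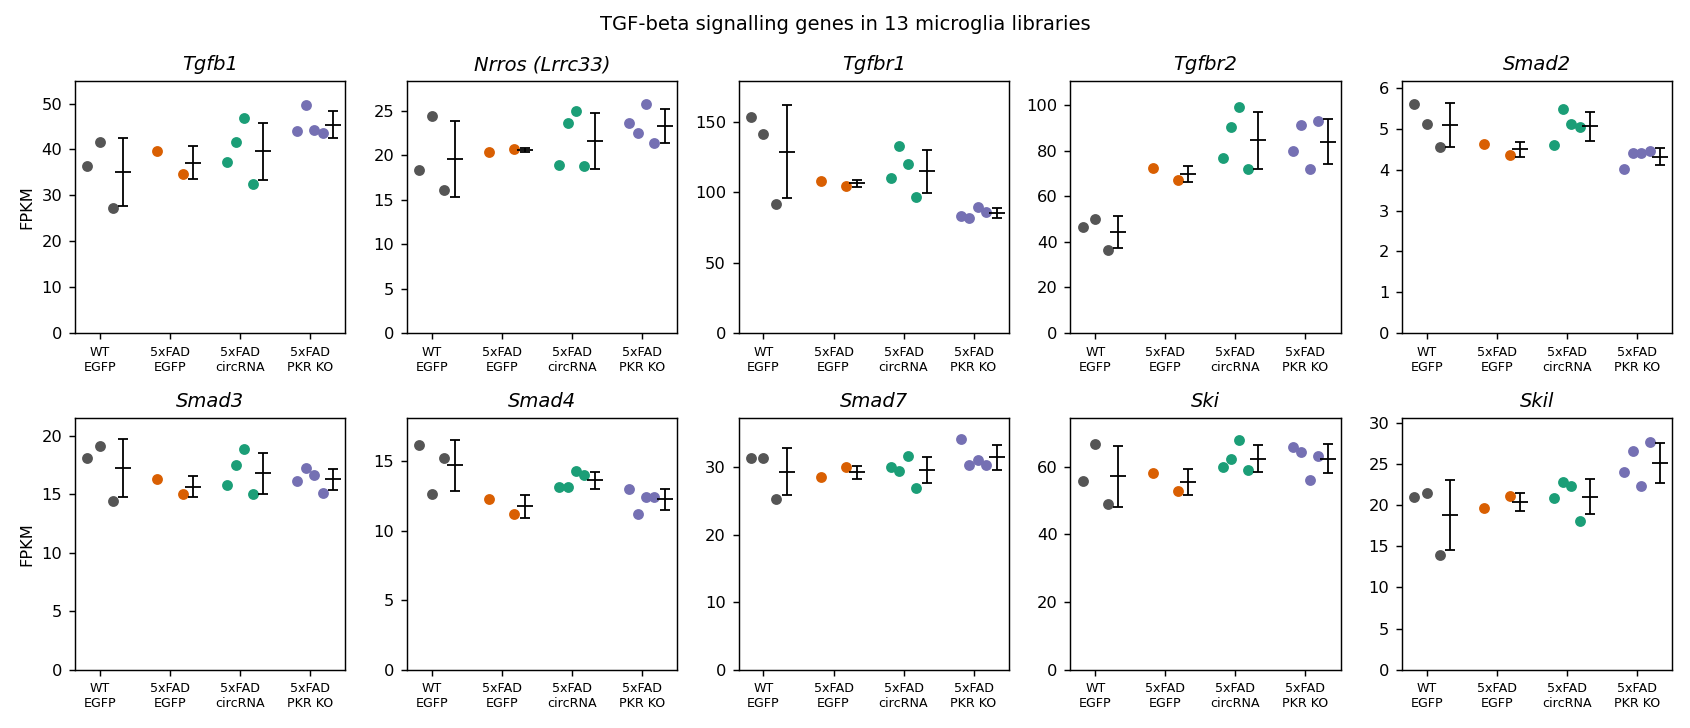
FPKM of the 10 TGF-beta genes in each library, with 1 panel per gene and groups on the horizontal axis; points are libraries and bars the group mean with its SD. Tgfbr2 lies at 36.3 to 49.8 FPKM in wild type and at 67.2 or above in every 5xFAD library, while Tgfbr1 lies lowest in the PKR knockout libraries.

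Tgfbr2, the ligand-binding receptor, was higher in all 3 kinds of 5xFAD microglia than in wild type. It measured 46.4, 49.8 and 36.3 FPKM in wild type, 72.2 and 67.2 in 5xFAD with EGFP, 76.6, 90.2, 99.2 and 72.0 with circRNA and 79.6, 91.2, 72.0 and 92.9 with PKR knockout. No wild type library overlapped any 5xFAD library. On the log2(FPKM + 1) scale, Tgfbr2 rose by 0.66 (SE 0.17) in 5xFAD with EGFP against wild type, which is 1.58-fold (limma, adjusted p = 0.0231). It rose by 0.92 (SE 0.14) with circRNA (limma, adjusted p = 0.000559) and by 0.91 (SE 0.14) with PKR knockout (limma, adjusted p = 0.000438), each 1.89-fold. Without wild type replicate 3 the rises were 0.53, 0.79 and 0.78, and limma gave adjusted p-values of 0.0425, 0.00157 and 0.00132. The call in 5xFAD with EGFP depended on both libraries of that group: the adjusted p was 0.151 without replicate 1 and 0.114 without replicate 2, with rises of 0.61 and 0.71. That call was also lost when the 2 groups were fitted alone (adjusted p = 0.118) and with the replicate number as a block (0.61, adjusted p = 0.0679). Under quantile normalization the rises were smaller, at 0.46, 0.58 and 0.56, and all 3 passed (adjusted p = 0.0138, 0.000710 and 0.000779).

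The number of the 10 genes that passed is read against the share of all 10817 tested genes that passed. In 5xFAD with EGFP against wild type 1 of the 10 passed, where 14.0% of all genes did (7.65% higher and 6.35% lower). That share itself depended on the EGFP libraries: 1514 genes passed with both, 666 without replicate 1, 566 without replicate 2 and 509 with the 2 groups fitted alone. Libraries did not overlap for 2 of the 10, Tgfbr2 and Smad4, as for 37.6% of all genes, and the same 2 had an unadjusted p under 0.05, as did 26.2%. With circRNA 1 of the 10 passed, where 25.8% did (17.8% higher and 8.05% lower), and Tgfbr2 was also the 1 gene without overlap (28.2% of all genes) and the 1 with an unadjusted p under 0.05 (36.7%). With PKR knockout 4 of the 10 passed, 2 higher and 2 lower, where 37.0% of all genes did (17.5% higher and 19.4% lower). Libraries did not overlap for 5 of the 10 (40.9% of all genes), and 6 had an unadjusted p under 0.05 (46.7%). These shares were near or below the background, so nothing is read from them about the 10 genes as a group. Median differences of the 10 genes were -0.01, 0.07 and 0.12, beside -0.03, 0.02 and -0.05 over all tested genes.

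Tgfbr1, the signalling receptor, was lower with PKR knockout. It measured 153, 142 and 91.6 FPKM in wild type, 108 and 105 in 5xFAD with EGFP, 110.1, 133, 119.8 and 96.7 with circRNA and 83.4, 81.4, 89.6 and 86.3 with PKR knockout. Every knockout library lay below every library of the other groups, and wild type replicate 3 lay within the range of the 5xFAD libraries. Against wild type, Tgfbr1 fell by 0.56 (SE 0.16) on the log2 scale with PKR knockout (limma, adjusted p = 0.0182). Without wild type replicate 3 this difference was -0.78 (limma, adjusted p = 0.000389); leaving out replicate 1 or 2 instead, it was -0.42 and -0.47 with adjusted p-values of 0.0834 and 0.0646. In 5xFAD with EGFP and with circRNA the differences from wild type were -0.24 (SE 0.19) and -0.14 (SE 0.16) and did not pass (limma, adjusted p = 0.477 and 0.582). Both passed when wild type replicate 3 was left out, at -0.47 and -0.37 (limma, adjusted p = 0.0336 and 0.0411). With all libraries kept, both also passed under quantile normalization (-0.62 and -0.65, adjusted p = 0.0179 and 0.00322), and with circRNA when libraries were rescaled to the same sum (-0.43, adjusted p = 0.0319). The fall with PKR knockout was -1.13 under quantile normalization (adjusted p = 4.81e-05).

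The balance of the receptors within a library does not change when a whole library is multiplied by a scaling factor. The ratio of Tgfbr2 to Tgfbr1 FPKM was 0.351 ± 0.047 (SD, n = 3) in wild type and 0.656 ± 0.019 (SD, n = 2) in 5xFAD with EGFP. It was 0.737 ± 0.067 (SD, n = 4) with circRNA and 0.989 ± 0.142 (SD, n = 4) with PKR knockout. Wild type libraries ranged from 0.303 to 0.397, below every 5xFAD library, and wild type replicate 3, with its low microglia marker sum, had the highest of the 3 wild type ratios. The knockout libraries ranged from 0.804 to 1.12, and the lowest of them was below the highest circRNA library, at 0.828. In 2 knockout libraries Tgfbr2 exceeded Tgfbr1, which occurred in no other group. The receptors together made up 42.0% to 50.8% of the summed FPKM of the 10 genes in every library.

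**Figure D2:**
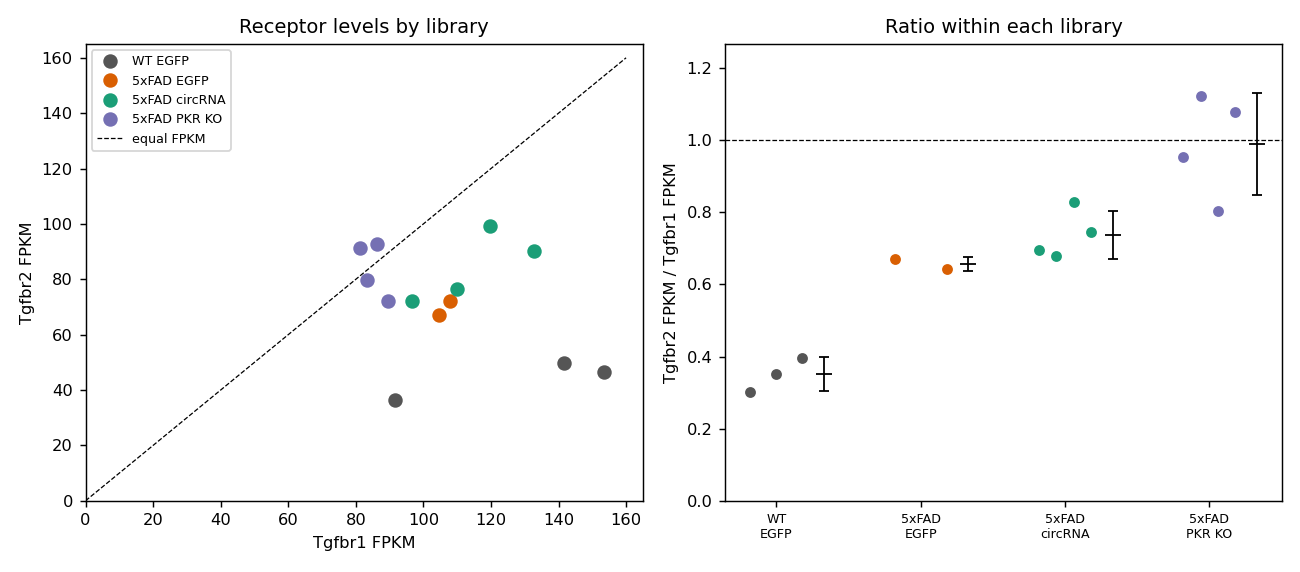
Left, Tgfbr2 against Tgfbr1 FPKM in each library, with a dashed line at equal FPKM; right, the ratio Tgfbr2 to Tgfbr1 within each library by group, with the group mean and SD. Wild type libraries have ratios of 0.303 to 0.397 and the PKR knockout libraries lie around the line of equal FPKM, at 0.804 to 1.12.

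Tgfb1, the ligand, did not pass the threshold in any comparison. It measured 36.4, 41.7 and 27.2 FPKM in wild type, 39.6 and 34.6 in 5xFAD with EGFP, 37.3, 41.7, 46.9 and 32.4 with circRNA and 44.0, 49.7, 44.2 and 43.6 with PKR knockout. The knockout libraries all lay above the wild type and EGFP libraries, and circRNA replicate 3 lay among them. Its difference between PKR knockout and wild type was 0.38 (SE 0.15; limma, adjusted p = 0.0607), 0.21 without wild type replicate 3 (adjusted p = 0.233) and 0.51 without wild type replicate 2 (adjusted p = 0.0228). Under median-ratio scaling it was 0.41 (adjusted p = 0.0238). With EGFP and with circRNA the differences of Tgfb1 from wild type were 0.10 and 0.18, and -0.07 and 0.01 without wild type replicate 3. The ratio of Tgfb1 to Tgfbr1 FPKM was 0.276 ± 0.034 (SD, n = 3) in wild type, 0.349 ± 0.026 (SD, n = 2) in 5xFAD with EGFP and 0.345 ± 0.033 (SD, n = 4) with circRNA. With PKR knockout it was 0.534 ± 0.053 (SD, n = 4), and no knockout library overlapped another group.

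Nrros, which tethers latent TGF-beta to the microglial surface, also did not pass in any comparison. It measured 18.3, 24.4 and 16.1 FPKM in wild type, 20.4 and 20.7 in 5xFAD with EGFP, 18.9, 23.6, 24.9 and 18.8 with circRNA and 23.6, 22.5, 25.7 and 21.3 with PKR knockout. All groups overlapped apart from the knockout libraries and those of 5xFAD with EGFP. Its largest difference was 0.26 (SE 0.14) between PKR knockout and wild type, with a 95% interval of -0.04 to 0.55 (limma, adjusted p = 0.161). It was 0.13 without wild type replicate 3 (adjusted p = 0.482) and 0.42 without wild type replicate 2 (adjusted p = 0.0240). With EGFP and with circRNA the differences of Nrros from wild type were 0.09 and 0.14, and -0.04 and 0.02 without wild type replicate 3. Ligand and tether kept a similar proportion, with a Tgfb1 to Nrros ratio of 1.80 ± 0.17 (SD, n = 3) in wild type, 1.81 ± 0.20 (SD, n = 2) in 5xFAD with EGFP, 1.83 ± 0.11 (SD, n = 4) with circRNA and 1.96 ± 0.22 (SD, n = 4) with PKR knockout.

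Of the signal carriers, Smad4 passed in 1 comparison and Smad2 and Smad3 in none, though more of them passed when libraries were rescaled to the same sum. Smad2 measured 5.62, 5.13 and 4.56 FPKM in wild type, 4.63 and 4.37 in 5xFAD with EGFP, 4.62, 5.50, 5.12 and 5.04 with circRNA and 4.01, 4.41, 4.43 and 4.46 with PKR knockout. The knockout libraries lay below all wild type and all circRNA libraries. The difference from wild type was -0.19 (SE 0.07; limma, adjusted p = 0.0532). Leaving out wild type replicate 3, it was -0.26 (adjusted p = 0.0169). For Smad2 the differences from wild type with EGFP and circRNA were -0.15 and -0.01, and -0.21 and -0.07 without that library. Rescaled to the same sum, Smad2 passed with EGFP, circRNA and PKR knockout (-0.30, -0.25 and -0.39, adjusted p = 0.0217, 0.0125 and 0.000807), and for the knockout also with array weights and with voom (-0.23 in both, adjusted p = 0.0232 and 0.0496). Smad3 ranged from 14.4 to 19.1 FPKM in wild type, 15.0 to 16.3 in 5xFAD with EGFP, 15.0 to 18.8 with circRNA and 15.1 to 17.3 with PKR knockout, and all groups overlapped. Its difference from wild type was smallest with circRNA, at -0.03 (95% interval -0.26 to 0.19), and largest in 5xFAD with EGFP, at -0.12 (95% interval -0.39 to 0.15). Leaving that library out, the Smad3 differences were -0.24 with EGFP, -0.15 with circRNA and -0.18 with PKR knockout, and none passed (limma, adjusted p = 0.146, 0.289 and 0.145). Rescaled, Smad3 passed with circRNA (-0.31, adjusted p = 0.0169) and PKR knockout (-0.29, adjusted p = 0.0182). These values are read against the shift of all genes under that rescaling, to medians of -0.17, -0.20 and -0.24 in the 3 comparisons.

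Smad4, the partner of both, was lower with PKR knockout than in wild type. It measured 16.2, 12.7 and 15.3 FPKM in wild type, 12.3 and 11.2 in 5xFAD with EGFP, 13.1, 13.1, 14.3 and 14.0 with circRNA and 13.0, 11.2, 12.4 and 12.4 with PKR knockout. Knockout and wild type overlapped, since wild type replicate 2 lay below knockout replicate 1. Smad4 fell by 0.24 (SE 0.09) on the log2 scale with PKR knockout (limma, adjusted p = 0.0443). The call was lost without wild type replicate 1 (-0.17, adjusted p = 0.161) or 3 (-0.21, adjusted p = 0.106) and without any of the 4 knockout libraries, as well as with array weights (-0.19, adjusted p = 0.111) and for the 2 groups alone (adjusted p = 0.103). In 5xFAD with EGFP, Smad4 was below every wild type library, with a difference of -0.30 (SE 0.10) that did not pass (limma, adjusted p = 0.0784), and of -0.39 without wild type replicate 2 (adjusted p = 0.0169) and -0.27 without wild type replicate 3 (adjusted p = 0.112). With EGFP it passed under quantile normalization (-0.34, adjusted p = 0.0215), rescaling (-0.46, adjusted p = 0.00247) and median-ratio scaling (-0.27, adjusted p = 0.0447). With circRNA it was -0.09, and -0.07 without wild type replicate 3, but -0.24 under quantile normalization (adjusted p = 0.0365) and -0.37 when rescaled (adjusted p = 0.00138).

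Among the inhibitors, Skil was higher with PKR knockout than in wild type. It measured 21.0, 21.5 and 13.9 FPKM in wild type, 19.6 and 21.1 in 5xFAD with EGFP, 20.9, 22.9, 22.3 and 18.1 with circRNA and 24.0, 26.6, 22.4 and 27.7 with PKR knockout. All knockout libraries lay above the wild type and EGFP libraries, and wild type replicate 3 was the lowest of the 13. Skil rose by 0.42 (SE 0.14) on the log2 scale (limma, adjusted p = 0.0323). Without wild type replicate 3 the difference was 0.23 and did not pass (limma, adjusted p = 0.114). It also did not pass without knockout replicate 1, 2 or 4 (adjusted p = 0.0504, 0.0773 and 0.0802). With all libraries kept, it did not pass under quantile normalization (0.26, adjusted p = 0.125), rescaling (0.20, adjusted p = 0.211), array weights (0.27, adjusted p = 0.0725) or for the 2 groups alone (adjusted p = 0.0755). With EGFP and circRNA the differences of Skil from wild type were 0.13 and 0.17, and -0.06 and -0.02 without wild type replicate 3.

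Ski, the related co-repressor, was 48.9 to 66.7 FPKM in wild type, 52.7 to 58.2 in 5xFAD with EGFP, 59.1 to 68.0 with circRNA and 56.2 to 65.7 with PKR knockout. Smad7, the receptor inhibitor, was 25.3 to 31.3, 28.6 to 30.0, 27.0 to 31.7 and 30.3 to 34.1 FPKM in the same groups. Neither passed in any comparison. Smad7 was the least variable of the 10 genes, with a coefficient of variation of 7.33% over the 13 libraries, against 26.3% for Tgfbr2 and 21.6% for Tgfbr1. Its difference from wild type was 0.00 (95% interval -0.23 to 0.24) in 5xFAD with EGFP, 0.02 (95% interval -0.18 to 0.22) with circRNA and 0.10 (95% interval -0.10 to 0.30) with PKR knockout. With circRNA that small difference turned to -0.26 under quantile normalization and to -0.27 when libraries were rescaled to the same sum, and passed in both (limma, adjusted p = 0.0188 and 0.0185). With wild type replicate 3 left out, the Smad7 differences were -0.09, -0.08 and 0.00 in that order of groups and those of Ski -0.14, 0.03 and 0.03, beside -0.03, 0.13 and 0.13 for Ski with it, and none passed. Rescaling to the same sum moved the median of all genes against wild type from -0.03 to -0.17 in 5xFAD with EGFP, from 0.02 to -0.20 with circRNA and from -0.05 to -0.24 with PKR knockout.

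**Figure D3:**
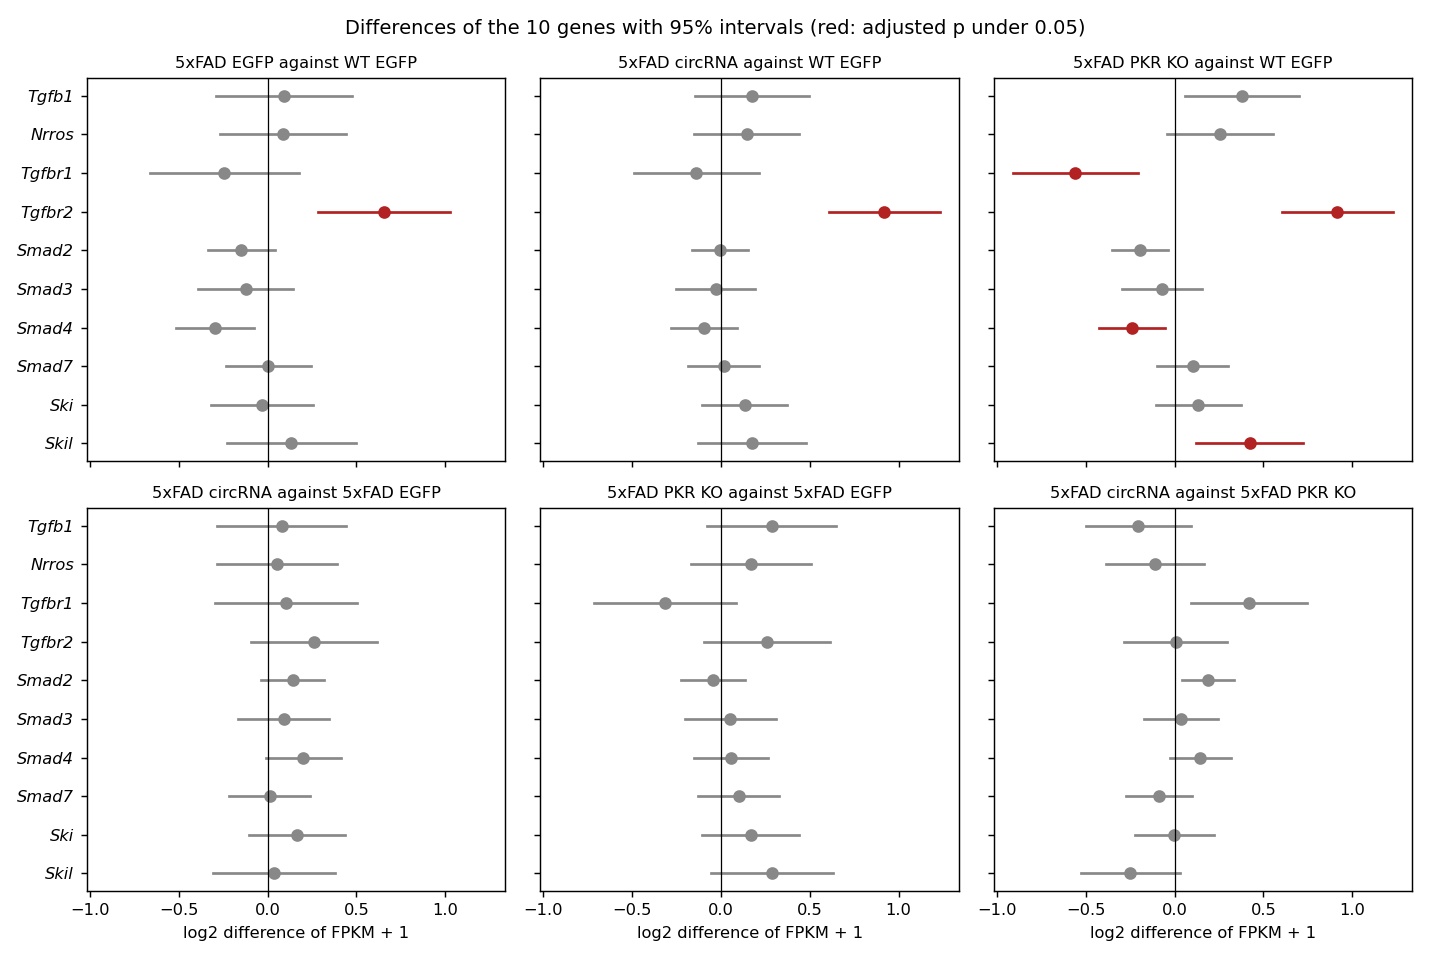
Differences in log2(FPKM + 1) of the 10 genes in 6 comparisons, with 95% intervals; red marks an adjusted p under 0.05. Against wild type, Tgfbr2 is red in all 3 panels, and Tgfbr1, Smad4 and Skil only with PKR knockout; no gene is red in the 3 panels that compare 5xFAD groups.

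Whether circRNA or loss of PKR changed the pathway within 5xFAD was compared next. None of the 10 genes passed between circRNA and EGFP, where 0% of all genes passed and 4.83% (523 genes) had an unadjusted p under 0.05; none of the 10 was among these. All 10 were higher with circRNA, by a median of 0.10 beside 0.08 over all genes. This direction depended on scaling: 6 of the 10 were lower under quantile normalization, 6 when rescaled to the same sum and 5 under median-ratio scaling. The largest was Tgfbr2, at 0.26 (95% interval -0.09 to 0.62; limma, adjusted p = 0.739). Smad4 and Ski were the 2 genes whose libraries did not overlap between these groups, as for 19.3% of all genes. An interval that wide leaves room for a change as large as 0.62, so the test does not show that the groups were alike.

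Between PKR knockout and EGFP none of the 10 passed, where 0.0832% of all genes did (9 genes), and none had an unadjusted p under 0.05, where 13.0% of all genes did. The number of 9 depended on the setting: 577 genes passed with the 2 groups fitted alone, 822 with array weights and 46 under median-ratio scaling. It was 0 under quantile normalization and when rescaled to the same sum, and at most 2 with 1 knockout library left out. None of the 10 passed in any of these settings. Skil, at 0.29 (95% interval -0.06 to 0.63; limma, adjusted p = 0.453), had the smallest adjusted p. Tgfbr1 was at -0.32 (95% interval -0.72 to 0.08; adjusted p = 0.477) and Tgfb1 at 0.28 (95% interval -0.08 to 0.65; adjusted p = 0.483). Libraries did not overlap for 5 of the 10 genes (Tgfb1, Tgfbr1, Smad7, Skil and Nrros), as for 34.8% of all genes.

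Between circRNA and PKR knockout none of the 10 passed, where 6.19% of all genes did (4.28% higher and 1.91% lower with circRNA). The balance of these directions turned with scaling, to 1.52% higher and 3.21% lower under quantile normalization and 2.40% higher and 6.30% lower under median-ratio scaling. The number of genes behind the 6.19%, 670, fell to between 147 and 506 when any 1 library of the 2 groups was left out. Tgfbr1 was higher with circRNA by 0.42 (SE 0.15) and Smad2 by 0.19 (SE 0.07), both with an adjusted p of 0.107 (limma) and with no overlap between groups. These were the 2 of the 10 with an unadjusted p under 0.05, as 25.5% of all genes had. Tgfbr1 passed here under quantile normalization (0.48, adjusted p = 0.0467), for the 2 groups alone (0.42, adjusted p = 0.0435) and with array weights (0.38, adjusted p = 0.00991); with array weights Tgfb1 (-0.28, adjusted p = 0.0366) and Skil (-0.27, adjusted p = 0.0332) passed too. Of all 10817 tested genes, 511 passed under quantile normalization, 893 for the 2 groups alone and 3161 with array weights. Smad4 also did not overlap, so that 3 of the 10 genes separated the groups, as did 19.5% of all genes. Tgfbr2 differed by 0.01, with a 95% interval of -0.28 to 0.29. These comparisons share libraries with each other and with those against wild type.

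The genes whose order over the 13 libraries was most like that of a receptor or of Nrros were sought among 10807 others by the mean difference in library rank, where 0 is an identical order. For Tgfbr2 this was Cd9, a tetraspanin of the cell surface, with a mean rank difference of 0. Cd9 measured 58.4 to 80.8 FPKM in wild type and 206 to 281 in the 5xFAD libraries. The next were Abhd12, a lipid hydrolase, and Arl11, a small GTPase, both at 0.308, where the median gene was at 4. For Tgfbr1 they were Nipa2 and Zyg11b at 0.308 and Spast, a microtubule-severing enzyme, at 0.462, where the median gene was at 3.85. For Nrros the nearest were Adam15, Fam174c and Gmppb, each at 1.23. These libraries share groups and depth, and the likeness is a description.

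Around the 10 genes, further parts of the pathway were counted. Of 16 listed ligand and latency genes, 12 were tested. Against wild type, 2 rose and 3 fell in 5xFAD with EGFP, 2 rose and 3 fell with circRNA, and 3 rose and 6 fell with PKR knockout, with medians of -0.21, -0.08 and -0.27. Over all genes 7.65% rose and 6.35% fell in the first of these comparisons, 17.8% and 8.05% in the second and 17.5% and 19.4% in the third. The counts were 2 and 3, 2 and 1, and 3 and 4 when wild type replicate 3 was left out. Of all 10817 tested genes, 969 rose and 1029 fell, 1624 rose and 953 fell, and 1658 rose and 2126 fell in that setting. Itgb3, an integrin subunit, was 8.08 ± 1.26 FPKM (SD, n = 3) in wild type and 13.9 ± 0.59 (SD, n = 2) in 5xFAD with EGFP, and rose by 0.72 (SE 0.13; limma, adjusted p = 0.00334), a call lost with the 2 groups fitted alone (adjusted p = 0.0542), as was that of Ltbp4 (0.0869). Thbs1, thrombospondin, which can release latent TGF-beta, rose by 0.74 with circRNA and by 0.93 with PKR knockout (limma, adjusted p = 0.000165 and 2.21e-05). Among those that fell were Tgfb2, another ligand, by 1.01 in 5xFAD with EGFP and by 1.06 with PKR knockout, and Ltbp4, a matrix protein that binds latent TGF-beta, by 1.57, 1.14 and 1.33 in the 3 groups. Ltbp4 measured 27.4, 14.6 and 32.6 FPKM in wild type, 10.5 and 4.98 in 5xFAD with EGFP, 7.59 to 13.3 with circRNA and 5.67 to 12.9 with PKR knockout. Its wild type order was that of the mural marker sum, which was 94.0, 50.4 and 111 FPKM in those libraries and 21.5 to 50.4 in all others. The part of mural cells in the Ltbp4 values was not tested. Without wild type replicate 3 the fall of Ltbp4 with circRNA did not pass (-0.92, adjusted p = 0.0800), nor without wild type replicate 1 (-1.04, adjusted p = 0.0757) or circRNA replicate 2 (-1.01, adjusted p = 0.0594). It also did not pass with array weights (-0.93, adjusted p = 0.0641). With EGFP the fall of Ltbp4 did not pass without EGFP replicate 2 (-1.09, adjusted p = 0.240) or wild type replicate 1 (-1.46, adjusted p = 0.0618), and that of Tgfb2 not without EGFP replicate 2 (-0.93, adjusted p = 0.104).

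Of 19 listed receptor genes beyond Tgfbr1 and Tgfbr2, 18 were tested. None rose and 8 fell in 5xFAD with EGFP, 1 rose and 7 fell with circRNA, and none rose and 6 fell with PKR knockout, with medians of -0.26, -0.19 and -0.17. The all-gene shares that fell were 6.35%, 8.05% and 19.4%, and 37.0% of all genes passed in either direction with PKR knockout. None rose and 10 fell, 2 rose and 7 fell, and 1 rose and 9 fell when wild type replicate 3 was left out. In that setting 1029, 953 and 2126 of 10817 genes fell. Eng, a co-receptor abundant on endothelium, measured 36.2, 28.2 and 33.6 FPKM in wild type, 19.1 and 15.9 in 5xFAD with EGFP, 16.8 to 22.9 with circRNA and 20.03 to 23.9 with PKR knockout. It fell by 0.86, 0.65 and 0.57, without overlap between wild type and any 5xFAD library (limma, adjusted p = 0.00193, 0.00168 and 0.00311). Acvrl1, an endothelial type I receptor, fell by 0.90 in 5xFAD with EGFP (limma, adjusted p = 0.00813), which did not pass without EGFP replicate 2 (-0.70, adjusted p = 0.128) or with the 2 groups fitted alone (adjusted p = 0.0653). Tgfbr3, the co-receptor betaglycan, fell by 0.98, 0.66 and 1.09, and with circRNA it did not pass without wild type replicate 3 (-0.54, adjusted p = 0.109). The Tgfbr3 call with circRNA was also lost without wild type replicate 1 or circRNA replicate 1, 2 or 3 (-0.67 to -0.49), and that with EGFP without wild type replicate 1 (-0.89) or EGFP replicate 1 or 2 (-1.05 and -0.90). With the 2 groups fitted alone, Tgfbr3 passed in neither (adjusted p = 0.0547 with EGFP and 0.105 with circRNA). With circRNA it also did not pass with array weights (-0.51, adjusted p = 0.0921) or with no filter on low values (-0.66, adjusted p = 0.0578). Acvr2b, an activin type II receptor, fell by 0.71 with circRNA and by 0.57 with PKR knockout. Beside these receptors, 5, 3 and 5 of 6 endothelial markers fell with EGFP, circRNA and PKR knockout, 4, 3 and 4 of 5 tested mural markers fell, and 5 of 5 border macrophage markers fell in each. However, 1 mural marker rose and passed with circRNA (0.66) and 1 with PKR knockout (0.64). The part of these cells in the receptor counts was not tested. Tgfbr2 moved against this list.

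Among 20 tested Smads, co-factors and ubiquitin ligases, of 22 listed, the co-repressor Tgif1 rose in all 3 comparisons with wild type. It measured 7.66, 6.40 and 5.02 FPKM in wild type, 11.7 and 10.4 in 5xFAD with EGFP, 11.7, 11.3, 11.3 and 10.2 with circRNA and 20.1, 22.1, 17.1 and 20.5 with PKR knockout. Wild type lay lowest and the knockout highest, without overlap, and EGFP and circRNA libraries overlapped in between. Tgif1 rose by 0.72 (SE 0.14) in 5xFAD with EGFP, by 0.73 (SE 0.12) with circRNA and by 1.52 (SE 0.12) with PKR knockout (limma, adjusted p = 0.00476, 0.000625 and 1.57e-06). Between circRNA and PKR knockout its difference was -0.79 (SE 0.11; limma, adjusted p = 0.00377), and it was 1 of 2 genes of the list that passed there, both lower with circRNA, where 6.19% of all genes passed and 1.91% were lower (3.21% under quantile normalization and 6.30% under median-ratio scaling). Tgif2, a relative of Tgif1, and the inhibitory Smad6 were low genes that fell: Tgif2 by 0.74, 0.62 and 0.72 in the 3 groups, and Smad6 by 0.64 in 5xFAD with EGFP and by 0.56 with circRNA. With EGFP these calls depended on single EGFP libraries: Tgif1 did not pass without replicate 1 (0.65, adjusted p = 0.0587), Tgif2 without replicate 1 or 2 (-0.68 and -0.80, adjusted p = 0.0850 and 0.0553), and Smad6 without replicate 1 or 2 (-0.75 and -0.53, adjusted p = 0.0502 and 0.185). With the 2 groups fitted alone none of the 3 passed (adjusted p = 0.0745, 0.0565 and 0.136). In the whole list 1 rose and 2 fell in 5xFAD with EGFP, 1 rose and 4 fell with circRNA, and 3 rose and 5 fell with PKR knockout, with medians of -0.11, -0.02 and -0.14. These counts were near the all-gene shares of 14.0%, 25.8% and 37.0%, so nothing is read from them about the list. When wild type replicate 3 was left out, 1 rose and 4 fell, 1 rose and 4 fell, and 3 rose and 5 fell. In that setting 1998, 2577 and 3784 of 10817 genes passed.

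**Figure D4:**
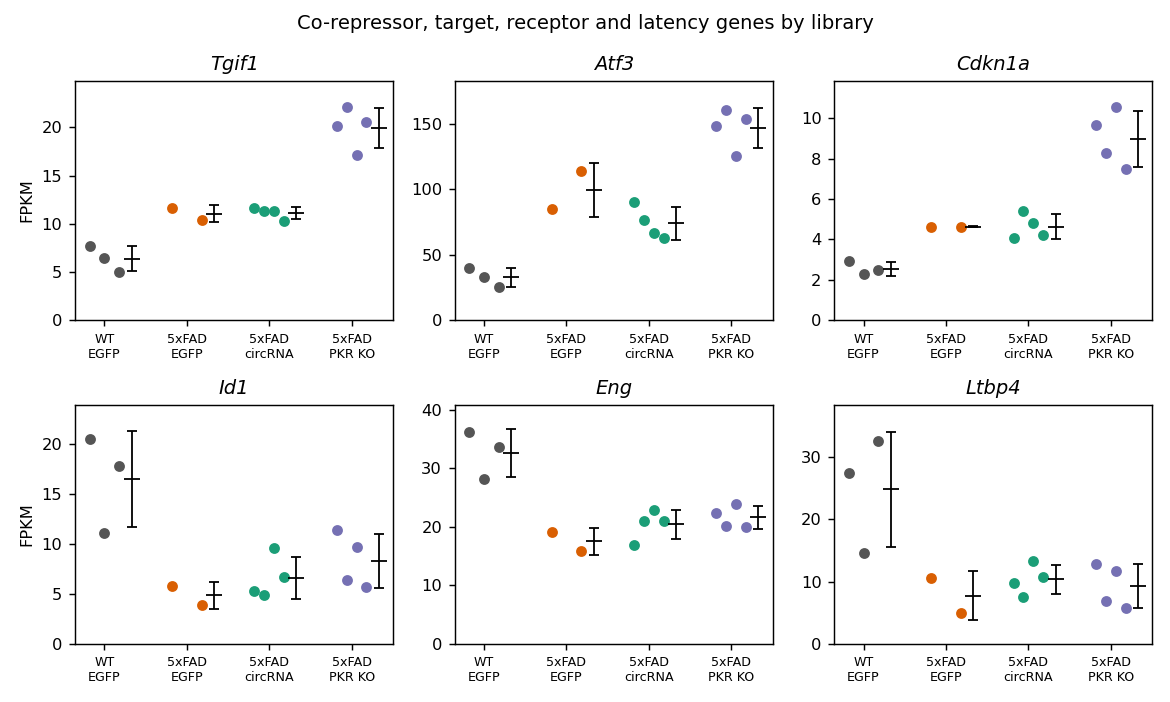
FPKM of 6 further pathway genes in each library by group, with the group mean and SD. Tgif1, Atf3 and Cdkn1a lie highest in the PKR knockout libraries, and Id1, Eng and Ltbp4 lie highest in wild type, where Id1 in the knockout overlaps wild type by 1 library.

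General target genes of TGF-beta moved in both directions. Of 18 listed, 15 were tested, and 5 rose and 4 fell in 5xFAD with EGFP, 5 rose and 5 fell with circRNA, and 6 rose and 6 fell with PKR knockout, beside all-gene shares of 14.0%, 25.8% and 37.0% that passed. If wild type replicate 3 was left out, 5 rose and 3 fell, 5 rose and 2 fell, and 6 rose and 4 fell. In that setting 1998, 2577 and 3784 of 10817 genes passed. Under quantile normalization 5 rose and 4 fell, 5 rose and 8 fell, and 6 rose and 5 fell, where 18.2%, 29.2% and 35.9% of all genes passed. Atf3, a stress-induced transcription factor, measured 40.01, 32.99 and 25.5 FPKM in wild type, 84.6 and 114 in 5xFAD with EGFP, 90.5, 76.7, 66.4 and 62.6 with circRNA and 149, 161, 126 and 154 with PKR knockout. Wild type lay below all other groups and the knockout above them. Atf3 rose by 1.58, 1.16 and 2.15 in the 3 groups (limma, adjusted p = 0.000377, 0.000406 and 2.3e-06). Bhlhe40, a transcriptional repressor, rose by 1.49 with circRNA and by 1.66 with PKR knockout. Id1 and Id3, inhibitors of helix-loop-helix factors that also respond to bone morphogenetic proteins, were among those that fell, Id1 by 1.56 and Id3 by 1.34 in 5xFAD with EGFP (limma, adjusted p = 0.00702 and 0.0176). Neither passed without EGFP replicate 2 (-1.33 and -0.96, adjusted p = 0.101 and 0.226), and Id3 not without wild type replicate 1 (-1.30, adjusted p = 0.0541) or with the 2 groups fitted alone (adjusted p = 0.0937).

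Cdkn1a, an inhibitor of cyclin-dependent kinases, was the one listed pathway gene that passed between PKR knockout and EGFP. It measured 4.60 and 4.64 FPKM with EGFP and 9.69, 8.27, 10.6 and 7.47 with PKR knockout, and rose by 0.82 (SE 0.13; limma, adjusted p = 0.0430). This call held in 6 of 17 alternatives and was lost without either EGFP library (adjusted p = 0.574 and 0.550) and without any knockout library (0.0689 to 0.130). Between circRNA and PKR knockout 4 of 15 target genes passed, all lower with circRNA, where 6.19% of all genes passed and 1.91% were lower (3.21% under quantile normalization and 6.30% under median-ratio scaling). Among them, named after their values were seen, were Junb (-1.13), Atf3 (-0.99) and Cdkn1a (-0.82), for which limma gave adjusted p-values of 0.0056, 0.00794 and 0.0029. In the same comparison the median of the target list was -0.17, beside 0.08 over all genes.

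For the 23 genes listed as depending on TGF-beta in microglia, the number that passed depended on scaling, and under quantile normalization nearly all that passed fell. Without it, in 5xFAD with EGFP none rose and 2 fell, with circRNA 2 rose and 4 fell, and with PKR knockout 4 rose and 7 fell, with medians of -0.21, -0.03 and -0.02. Beside the all-gene shares of 14.0%, 25.8% and 37.0%, the first of these counts was below the background and the second near it, with all libraries kept. Without wild type replicate 3 the first count was 8, where 1998 of 10817 genes passed. Tmem119, a surface marker of microglia, measured 434, 461 and 300.0 FPKM in wild type, 206 and 167 in 5xFAD with EGFP, 158 to 260.3 with circRNA and 177 to 304 with PKR knockout. It fell by 1.07 in 5xFAD with EGFP and by 0.94 with circRNA (limma, adjusted p = 0.0227 and 0.0111). With EGFP the Tmem119 call was lost without EGFP replicate 1 or 2 (-1.22 and -0.92, adjusted p = 0.0734 and 0.202), and likewise when wild type replicate 1 or 2 was left out (adjusted p = 0.0698 and 0.0602) and when the 2 groups were fitted alone (0.0987). Crybb1, a crystallin gene expressed in microglia, fell by 1.52, 1.58 and 1.20 in the 3 groups; with EGFP it did not pass without EGFP replicate 1 or 2 (-1.78 and -1.27) or wild type replicate 1 (-1.43). P2ry12, a purinergic receptor, fell by 0.94 with PKR knockout (limma, adjusted p = 0.00227), where it measured 153 to 193 FPKM against 248 to 421 in wild type. C1qa, a complement subunit, moved the other way, rising by 0.83 with circRNA and 0.93 with PKR knockout, though with circRNA the difference was 0.16 under quantile normalization (adjusted p = 0.585) and with PKR knockout 0.50 (adjusted p = 0.0662). Neither C1qa call passed when no filter on low values was used (adjusted p = 0.148 and 0.0794), nor that with circRNA with the 2 groups fitted alone (0.0796). Between circRNA and PKR knockout, P2ry13, another purinergic receptor, was higher by 0.64 and Jun, a stress-responsive transcription factor, lower at -0.71 (limma, adjusted p = 0.0408 and 0.0367). The Jun call was lost without any 1 of the 8 libraries (-0.80 to -0.59), and the P2ry13 call without any 1 of 7 (0.54 to 0.68) and with the replicate number as a block (0.64, adjusted p = 0.0604) or median-ratio scaling (0.53, adjusted p = 0.0512). Neither passed with no filter on low values (adjusted p = 0.0705 for Jun and 0.0687 for P2ry13).

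Of 44 differences from wild type that met the naming rule in these lists, 42 passed and none turned without wild type replicate 3, the exceptions being Ltbp4 and Tgfbr3 with circRNA.

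The counts of this microglial list depended on scaling. Under quantile normalization none rose and 12 fell in 5xFAD with EGFP, none rose and 15 fell with circRNA, and 1 rose and 16 fell with PKR knockout, with medians of -0.51, -0.62 and -0.63; of all genes 9.12%, 14.3% and 17.1% fell under that scaling. Rescaled to the same sum, none rose and 7 fell, 2 rose and 11 fell, and 3 rose and 11 fell, where 27.7%, 43.3% and 50.1% of all genes fell, so these counts were near the background. Without wild type replicate 3, none rose and 8 fell, 2 rose and 8 fell, and 3 rose and 11 fell. In that setting 1029, 953 and 2126 of 10817 genes fell. Rescaling likewise took the receptor list to 14, 15 and 16 genes that fell and none that rose. It took the Smad and co-factor list to 10, 15 and 14 that fell with 1, 1 and 2 that rose. Under rescaling 27.7%, 43.3% and 50.1% of all genes fell.

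**Figure D5:**
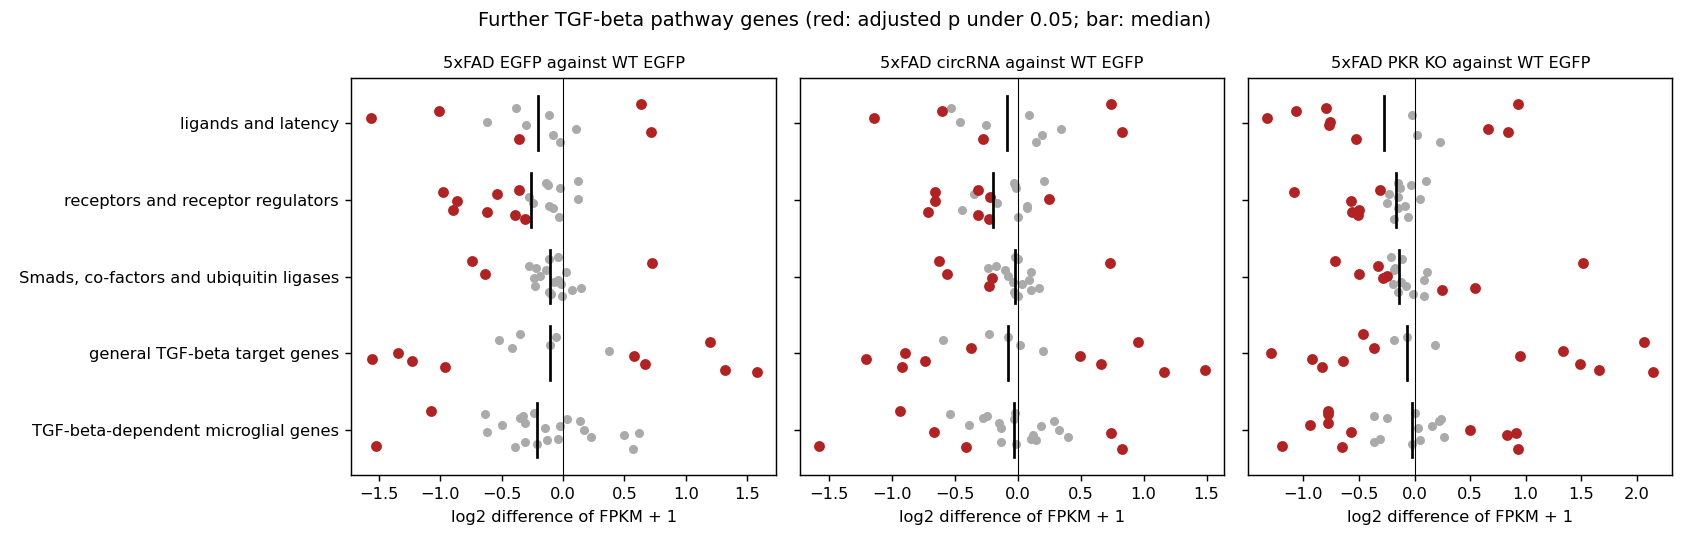
Difference in log2(FPKM + 1) from wild type of every tested gene in 5 pathway lists, for 3 comparisons; red points have an adjusted p under 0.05 and black bars are list medians. List medians lie between -0.27 and -0.02, and the target list holds red points on both sides.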

How the data were processed

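Total RNA of mouse microglia was sequenced after depletion of ribosomal RNA with a stranded kit, per the labels' protocols. The authors deposited FPKM values for 19737 genes in 13 libraries, not pooled. The submitters' processing notes name Bowtie2 2.3.5, HISAT2 2.1.0, featureCounts 1.5.1 and build mm10; their roles, the annotation and the strand setting are not given in the sources used here. Because FPKM is relative to a library's total, a large change in abundant genes moves the others. Gene lengths from GENCODE M21 (build GRCm38) let depth be recovered for 19389 genes, with 89.8% to 93.6% of low values whole fragments within 0.02.

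Groups came from the titles. All 13 libraries entered 1 limma model (limma 3.58.1, R 4.3.3) on log2(FPKM + 1), with a mean per group, 9 residual degrees of freedom and an intensity trend, over 10817 genes that averaged 1 FPKM or more. P-values were two-sided and adjusted by Benjamini and Hochberg over all of them in each of 6 comparisons, with a threshold of 0.05. On this scale a log2 difference understates the change of low genes. The model was tested on simulated data. From each further list the text names at most the 3 genes with the largest difference among those that passed; some single genes of these lists are counted but not reported here. The members and lists were chosen with earlier results of these data known. Alternatives were pseudocounts, filters, scalings, array weights, a robust fit, the groups alone, a replicate block and leaving out each library; voom on recovered fragments (10628 genes) was chosen after seeing the data. Smad4 overlaps a pseudogene on the other strand by 274 bases.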

Additional observations from a re-analysis of the deposited data

Results flagged for a closer look

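In 20 groups of 4 libraries (the 10 genes with circRNA and with PKR knockout), 2 single libraries lay far from the other 3, where chance alone would mark about 1 in 20 groups. Smad2 was 4.01 FPKM in PKR knockout replicate 1 and 4.41 to 4.46 in the others. Tgfb1 was 49.7 FPKM in PKR knockout replicate 2 and 43.6 to 44.2 in the others.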

How the results depend on the processing

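Of the 10 genes, 1 passed in 5xFAD with EGFP against wild type. That count became 3 under quantile normalization and when rescaled to the same sum, 2 under median-ratio scaling and 0 when the 2 groups were fitted alone; leaving out 1 library gave 0 to 2. Of all genes 18.2%, 34.3% and 17.5% passed under the 3 scalings. With circRNA against wild type the count of 1 became 4 under quantile normalization and 6 when rescaled, where 29.2% and 52.5% of all genes passed, and 1 to 2 with a library left out. With PKR knockout against wild type the count of 4 became 2 for the groups alone, where 3215 of 10817 genes passed, and 2 to 5 with a library left out. Between circRNA and PKR knockout the count of 0 became 1 under quantile normalization, 1 for the groups alone and 3 with array weights. Of 10817 genes, 511, 893 and 3161 passed in those settings, so nothing is read from these counts about the 10 genes. The count stayed 0 with any library left out. In the other 2 comparisons it was 0 in every alternative run. The rise of Tgfbr2 passed in 18 of 18 alternatives with circRNA (0.58 to 1.01) and with PKR knockout (0.56 to 1.01), and in 12 of 16 with EGFP. Tgfbr1 with PKR knockout passed in 16 of 18, and Skil and Smad4 in 10 of 18 each. Smad7 with circRNA against wild type turned from 0.02 to -0.26 (quantile) and -0.27 (rescaled); the cause was not tested. Of 53 differences of further genes that met the naming rule, 34 passed in every alternative and none turned. Where 5xFAD EGFP was left with 1 library, that library was assumed to vary like the other groups.

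Replicate numbers recur across groups, and the labels tie them to no shared source. The mean correlation of same-numbered libraries' deviations was 0.12, 0.02 and 0.14 for EGFP, circRNA and PKR knockout against wild type, 0.07 for circRNA and 0.33 for PKR knockout against EGFP (2 pairs each), and 0.19 (0.04 to 0.55) for circRNA against PKR knockout. In no comparison with 3 or more pairs was every pair above 0.1. All 4 libraries that share a number correlated best with their own in PKR knockout against EGFP, and 2 of 4, 2 of 6 or 2 of 8 in the others. With only 2 EGFP libraries, their deviations from the group mean are mirror images, so those 4 matches are not independent. With the number as a block, the count in 5xFAD with EGFP against wild type was 0 (Tgfbr2 0.61, adjusted p = 0.0679), and the other counts of the 10 genes were within 1.5 times; over all genes, 9 calls became 22 for PKR knockout against EGFP.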
